A study of Mus musculus with 3 samples.

Results

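The circadian clock genes described here are 10 genes of the core loop and its direct outputs: Clock, Per1, Per2, Per3, Cry1, Cry2, Nr1d1, Nr1d2, Dbp and Tef. They were chosen by gene symbol from the 56941 genes of the count table, with their levels and their spread between these libraries already known, so their values are given as a description. All 10 were found. The table covers microvascular fragments, short pieces of small vessel that keep endothelium and the cells attached to it, freed from the brains of adult wild-type C57BL/6J mice by mechanical and enzymatic dissociation. The 3 libraries of polyadenylated RNA form 1 group with no treatment, no engineered allele and no control (n = 3), and the series' design text speaks of 3 mice. Nothing further in the labels says how the replicates were separated, and no sex, exact age or time of day of tissue collection is given in the sources used here.

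The circadian clock is a transcription loop that runs with a period of about a day in nearly every cell, vascular cells included. CLOCK pairs with BMAL1 (gene Arntl in this table) or NPAS2 and activates genes through DNA elements called E-boxes, among them the Per and Cry genes, whose proteins then repress their own activators. The same activators drive Nr1d1 and Nr1d2, which encode the nuclear receptors REV-ERB alpha and beta; these repress Arntl, Npas2 and Nfil3 through ROR elements. The outputs DBP and TEF, with HLF, activate genes through D-boxes, which NFIL3 represses. In most mouse peripheral tissues Nr1d1, Nr1d2, Dbp, Tef and the Per genes peak in the light phase or around its end. Arntl, Npas2, Nfil3 and Cry1, and Clock where it cycles, peak in the later dark phase or around its end. Below, the first set is called the light-phase members (7 genes) and Clock and Cry1 the dark-phase members (2 genes). Cry2, which cycles weakly, was put in neither, although Clock also cycles weakly or not at all in many tissues.

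Depth was 128428355 to 150449539 counts per library, so that a count of 0 allows at most 0.0199 to 0.0234 CPM (3 counts of the library total, counting error only; CPM are counts scaled to a common total with TMM effective library sizes). Endothelial markers, the defining ones for this preparation, all reached 1 CPM in each of the 3 libraries, the level from which a gene is called detected here (8 of 8, summed level 15918 to 20339 CPM). Those of pericytes (6 of 6, 3464 to 3673 CPM) and microglia (6 of 6) did too. All markers of astrocytes, neurons, smooth muscle, fibroblasts, choroid plexus and erythroid cells also reached it, so this level does not set vessel cells apart. Replicate 2 stands apart in its pituitary hormone genes, whose summed level over 6 genes was 20.7, 1435 and 18.2 CPM in replicates 1, 2 and 3, and replicate 1 in its 5 erythroid genes (1088, 134 and 62.5 CPM). Markers of other cell types also moved with replicate 2: astrocyte markers were highest there in 5 of 6 (summed level 1570, 1708 and 920.2 CPM) and microglial markers lowest in 6 of 6 (5512, 4087 and 4868 CPM). Pericyte markers were highest there in 4 of 6. Smooth muscle (5200, 4586 and 5268 CPM) and fibroblast markers were each lowest there in 4 of 5, and neuron markers in 4 of 6. Of the 8 endothelial markers, 2 were highest and 2 lowest there. The 6 choroid plexus markers summed to 6892, 8204 and 5066 CPM, although 5 of 6 were highest in replicate 1 and 1 in replicate 2, and 6 of 6 were lowest in replicate 3. As replicate 2 was also the highest library for 8 of the 10 clock members, results are given with and without it. The part of these cell types' RNA in the results was not tested. In bulk RNA, fewer cells of a type and less RNA per cell cannot be told apart.

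The light-phase members were all highest in replicate 2. Outside the members, Arntl, Npas2 and Nfil3, which peak in the opposite phase, were all lowest there. The 4 other light-phase clock genes were mixed, with 2 highest and 1 lowest in replicate 2. Of the 10 members, 8 were highest in replicate 2 (the 7 light-phase members and Cry2), against 28.7% of the 13211 detected genes. Dbp differed most, at 3.36 times the level of replicate 1, followed by Per3 and Tef. The dark-phase members Clock and Cry1 were neither highest nor lowest in replicate 2. The level in replicate 3 was 1.07 times that in replicate 1 for Dbp, 1.03 for Tef, 0.989 for Per3 and 0.944 for Nr1d1, and between 0.757 (Clock) and 1.53 (Cry1) for the others.

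**Figure D1:**
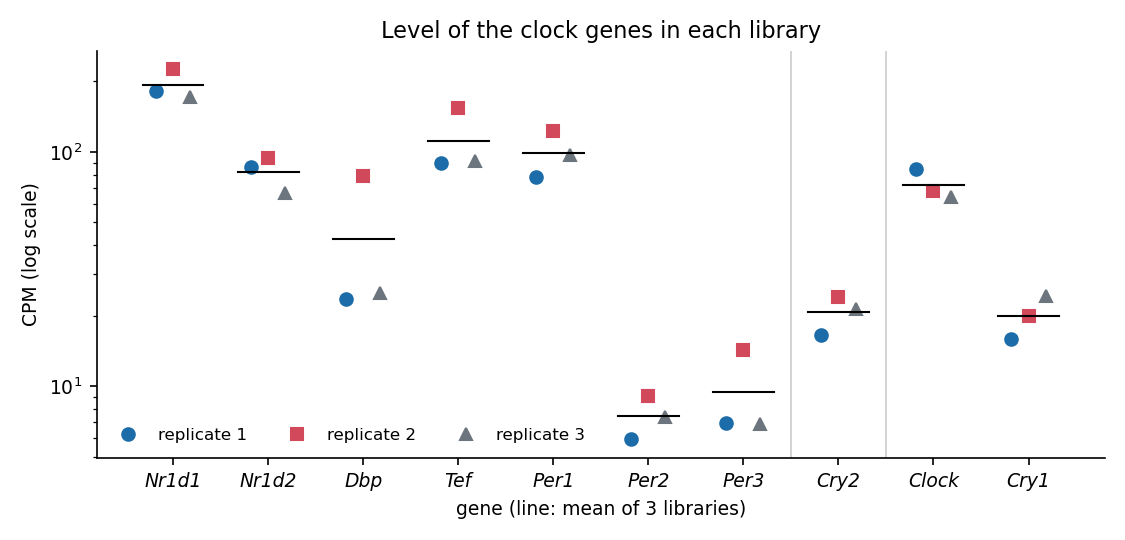
Level of each member in CPM (log axis) in the 3 libraries, with a line at the mean of the 3; light-phase members stand on the left, then Cry2, then Clock and Cry1. Replicate 2 (squares) is the highest library for the 7 light-phase members, with the widest gap for Dbp (79.0 CPM against 23.5 and 25.1 CPM).

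Among the repressors that act on the ROR elements, Nr1d1 had 181, 225 and 171 CPM in replicates 1, 2 and 3, a mean of 192 ± 28.9 (SD, n = 3). Its exact 95% Poisson intervals of 179 to 183, 223 to 228 and 169 to 173 CPM did not overlap, so the libraries differed by more than counting error, which is all that these intervals cover. Replicate 2 was the high one, at 1.24 times replicate 1 and 1.32 times replicate 3. Its relative Nr1d2 had 85.9, 93.7 and 66.8 CPM (82.1 ± 13.8), so here replicate 3 was the low library and replicate 2 lay 1.09 times above replicate 1. The count ratio of Nr1d1 to Nr1d2 inside a library, which needs no scaling between libraries, was 2.11, 2.40 and 2.56. By GENCODE M21 gene models, 8.55% of the exonic length of Nr1d1 lies under exons of Thra, the thyroid hormone receptor alpha gene on the other strand. Thra had 168, 194 and 199 CPM and was not highest in replicate 2. The strand setting of the counting is not given in the sources used here, so reads from that overlap cannot be assigned to either gene.

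Of the D-box activators, Dbp showed the widest gap between libraries, which was also the widest among the 10 members. Dbp, a clock output that is among the strongest cycling transcripts of many tissues, had 3060, 11039 and 3641 counts, or 23.5, 79.0 and 25.1 CPM (42.5 ± 31.6, SD, n = 3). Replicate 2 stood at 3.36 times replicate 1 and 3.15 times replicate 3, while replicates 1 and 3 differed by a factor of 1.07. Tef, which encodes a related factor of the same bZIP family, had 89.3, 153 and 91.6 CPM (111 ± 36.3), with replicate 2 at 1.72 and 1.67 times the others. The count ratio of Dbp to Tef was 0.263, 0.515 and 0.274, so Dbp stood out in replicate 2 more than Tef by more than counting error. The third member of that family, Hlf, had 51.2, 61.1 and 43.6 CPM and was also highest in replicate 2. For Dbp, 18.01% of the exonic length lies under exons of Sphk2 on the other strand (sphingosine kinase 2), which had 36.4, 44.7 and 40.1 CPM. Sphk2 was thus also highest in replicate 2, and reads from that overlap cannot be assigned to either gene.

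The Per genes encode the repressors that accumulate after the activators. Per1 had 78.1, 122 and 97.1 CPM (99.1 ± 22.1) and Per2 5.93, 9.06 and 7.39 CPM (7.46 ± 1.56). In both, replicate 2 was highest and replicate 3 lay between it and replicate 1. The count ratio of Per1 to Per2 was 13.2, 13.5 and 13.2, with 95% counting intervals that overlapped in all 3 libraries. Per3 had 6.98, 14.3 and 6.91 CPM (9.41 ± 4.26) and followed the pattern of Tef and Dbp instead, with replicates 1 and 3 alike and replicate 2 at 2.05 and 2.07 times their level. The count ratio of Per3 to Per2 was accordingly highest in replicate 2, at 1.18, 1.58 and 0.936.

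Per1 is also an early response gene and a target of the glucocorticoid receptor, so both kinds of gene were set beside it. Of 12 early response genes, 11 were highest in replicate 2 and 11 lowest in replicate 1, with median deviations of -0.71, 0.69 and 0.04 on the log2(CPM + 1) scale. Fos had 13.7, 86.6 and 32.6 CPM. Per1, Per2 and Cry2 had the same order of libraries, highest in replicate 2 and lowest in replicate 1. Dbp, Tef and Per3 were also highest in replicate 2. By value Dbp and Tef were lowest in replicate 1 and Per3 in replicate 3. For these 3 genes the 95% counting intervals of replicates 1 and 3 overlapped, so their lowest library is not resolved. With library totals in place of TMM, Tef was lowest in replicate 3. Of 12 glucocorticoid response genes, 7 were lowest in replicate 2, among them Fkbp5 at 55.9, 19.9 and 69.7 CPM and Zbtb16 at 48.1, 8.56 and 41.0 CPM, and 3 were highest there, as Per1 was: Sgk1 (183, 266 and 242 CPM), Mt1 (109, 140 and 127 CPM) and Errfi1 (95.5, 101 and 96.0 CPM). Of 8 temperature response genes, 5 were highest in replicate 2. They were the cold-inducible Cirbp (16.9, 29.7 and 16.7 CPM) and Rbm3 (72.3, 110 and 58.4 CPM) and 3 chaperone genes. The chaperone genes were Hspa1a (16.4, 19.7 and 17.8 CPM), Hspa1b (21.3, 29.6 and 25.9 CPM) and Hsph1 (98.9, 110 and 103 CPM). The other 3 (Hspb1, Dnajb1 and Hspa8) were highest in replicate 3. Only Hspa8 (1915, 1797 and 2147 CPM) was lowest in replicate 2. The part of these responses in the clock genes' levels was not tested.

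Cry1 and Cry2 encode the partners of the PER proteins and differed in pattern. Cry1 had 15.8, 19.8 and 24.2 CPM (20.0 ± 4.20), so that replicate 3 was highest and replicate 1 lowest. Cry2 had 16.6, 24.1 and 21.3 CPM (20.7 ± 3.80), with replicate 2 highest. The count ratio of Cry1 to Cry2 was lowest in replicate 2, at 0.955, 0.824 and 1.13. Clock, the gene of BMAL1's partner in the activator complex, had 84.8, 68.2 and 64.2 CPM (72.4 ± 10.9). Replicate 1 was above both other libraries. Clock is known to cycle weakly or not at all in many tissues.

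**Figure D2:**
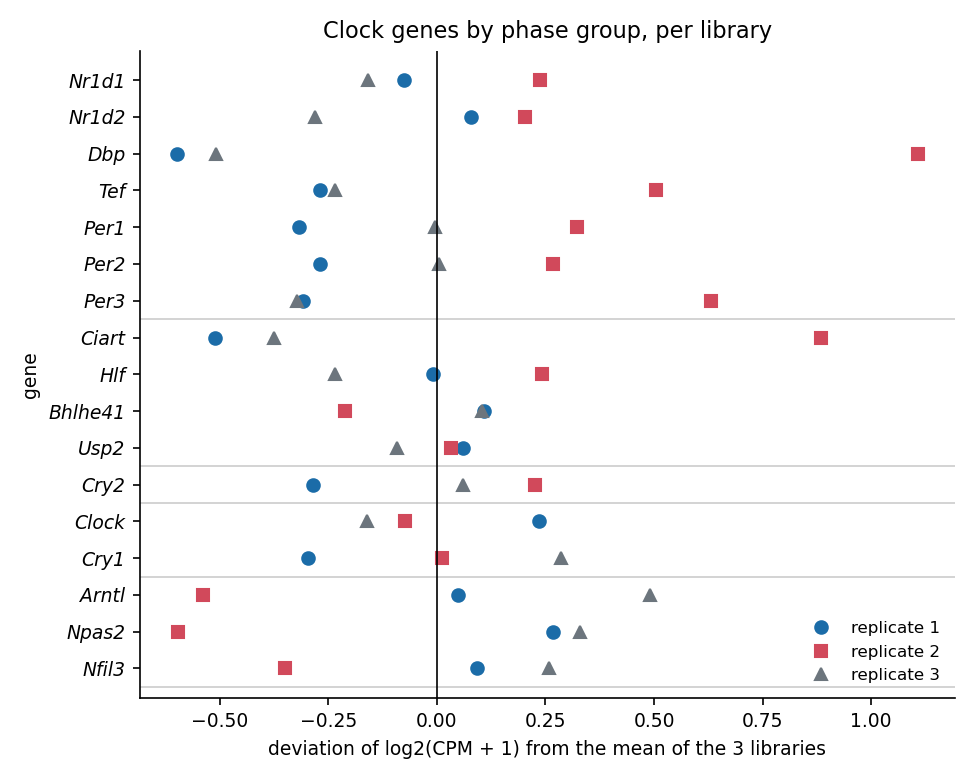
Deviation of log2(CPM + 1) from each gene's mean over the 3 libraries, for 17 clock genes grouped by the phase known from other mouse tissues. Replicate 2 (squares) lies on the right for the 7 light-phase members, Ciart, Hlf and Cry2 and on the left for Arntl, Npas2 and Nfil3. Of the other light-phase genes, Bhlhe41 has replicate 2 on the left and Usp2 has replicate 1 furthest right. Clock and Cry1 do not separate replicate 2.

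Clock genes outside the 10 were taken from fixed lists. The 3 other dark-phase genes were all lowest in replicate 2, against 30.8% of detected genes. Arntl, which encodes the activator BMAL1, had 38.6, 25.3 and 52.8 CPM (38.9 ± 13.7). Npas2, an activator that can replace CLOCK, had 10.5, 5.29 and 10.95 CPM, and Nfil3, the D-box repressor, 11.2, 7.97 and 12.7 CPM. Replicate 2 was the low library of all 3, and replicate 3 the high one; with library totals in place of TMM, replicate 1 was the highest for Npas2. Of the 4 other light-phase genes, Ciart, which encodes the repressor CHRONO, had 1.82, 6.42 and 2.10 CPM, the same shape as Dbp with a ratio of 3.53 between its highest and lowest library. Hlf was also highest in replicate 2, but Bhlhe41 (14.4, 11.3 and 14.4 CPM) was lowest there and Usp2 (35.2, 34.6 and 31.6 CPM) was highest in replicate 1. Bhlhe40, another E-box repressor, which responds to many stimuli, had 120, 191 and 146 CPM, the order of Per1.

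The remaining clock genes varied less. Rora, the ROR activator, had 49.0, 44.99 and 45.4 CPM, and its relative Rorb was low, at 1.25 ± 0.565 CPM. Of the 8 genes for the kinases and ubiquitin ligases that set the stability of PER and CRY, 7 were detected. None of the 7 was highest in replicate 2 (with library totals in place of TMM, Btrc was), and their median difference between the highest and the lowest library was 0.24 on the log2(CPM + 1) scale, the same as that of all detected genes. Csnk1d, a kinase of the PER proteins, had 160, 190 and 202 CPM. Of the 4 transcripts that cycle in many mouse tissues, Tspan4 alone was highest in replicate 2 (74.1, 116 and 79.3 CPM).

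Pairs of opposite phase were then compared inside each library by the ratio of their counts, which is free of any scaling between libraries. Of the 14 pairs of a light-phase with a dark-phase member, 12 had their highest ratio in replicate 2 and none its lowest. The ratio of Dbp to Clock was 0.277, 1.16 and 0.391, a 4.18-fold difference between the highest and lowest library and the widest of the 14. The exceptions were Nr1d1 to Cry1 (11.4, 11.3 and 7.05) and Nr1d2 to Cry1 (5.42, 4.72 and 2.76), which were highest in replicate 1; for Nr1d1 the counting intervals of replicates 1 and 2 overlapped. The pairs share genes, so their number is not a number of independent observations. They also largely restate levels already given, since the light-phase members were all highest in replicate 2.

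Against Arntl, Npas2 and Nfil3 the ratios differed more. All 21 pairs of a light-phase member with 1 of these 3 genes had their highest ratio in replicate 2, by 2.09 to 6.63 times the lowest library. That the ratio was highest there follows from the levels already given, since these members were highest and these 3 genes lowest in replicate 2. These pairs also share genes, so their number is not a further result. The ratio of Dbp to Arntl was 0.609, 3.12 and 0.475, and that of Nr1d1, the repressor, to Arntl, its target, 4.69, 8.88 and 3.23. The ratio of Dbp to Nfil3, an activator and a repressor of the same D-box, was 2.10, 9.91 and 1.98. In each of these 3 pairs replicates 1 and 3 were nearer to each other than either was to replicate 2. Replicate 1 was above replicate 3, although for Dbp to Nfil3 their counting intervals overlapped.

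**Figure D3:**
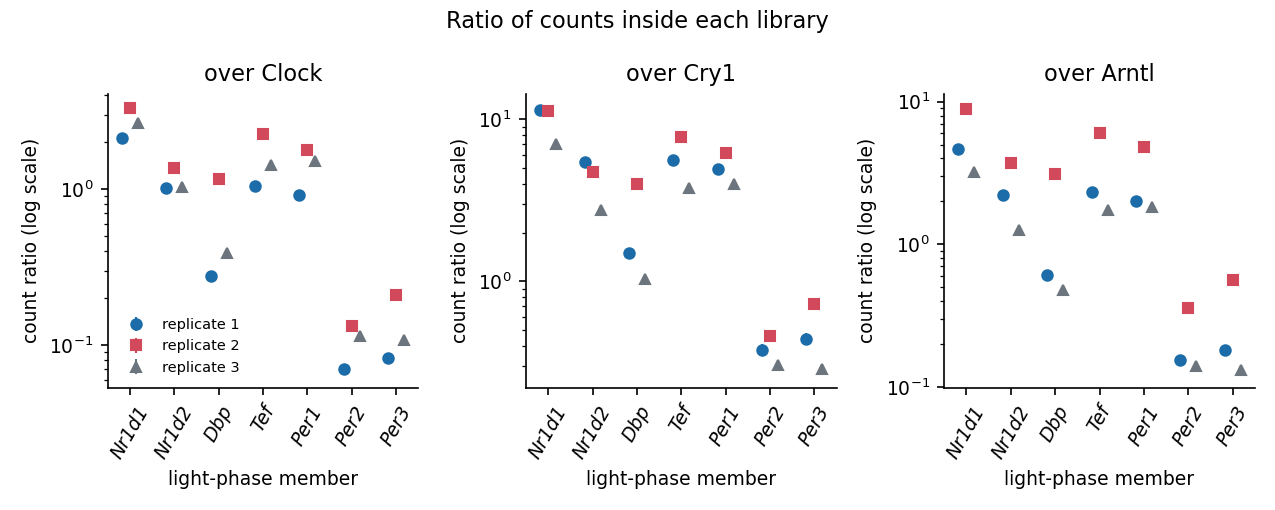
Ratio of the counts of each light-phase member to Clock, Cry1 and Arntl inside each library (log axes; bars, often smaller than the symbols, are 95% counting intervals). Over Arntl, replicate 2 (squares) is above both other libraries for 7 of 7 genes, which follows from the levels of these genes and of Arntl. Over Cry1, Nr1d1 and Nr1d2 are the exceptions.

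As a single value per library, the mean log2(CPM + 1) of the 7 light-phase members minus that of Clock and Cry1 was 0.06, 0.78 and 0.0033 in replicates 1, 2 and 3. The difference between the highest and lowest library was 0.78, and without replicate 2 it was 0.056. Against Arntl, Npas2 and Nfil3 in place of Clock and Cry1, the same value was 1.16, 2.51 and 0.98. Replicate 2 was the high library on both scales, which follows from the levels already given. Mean deviations of the 7 light-phase members were -0.25, 0.47 and -0.22 in replicates 1, 2 and 3. The median deviations of Clock and Cry1 were -0.03, -0.03 and 0.06, so the first scale mostly restates the light-phase members. The sources used here give no collection time, so these values were not set against a time of day.

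The spread of the members was set against that of all genes. The difference between the highest and lowest library had a median of 0.56 (log2) over the 10 members and of 0.24 over all 13211 detected genes. Dbp had 1.71, reached or passed by 0.257% of detected genes, Per3 0.95 (1.54%), Tef 0.77 (3.41%) and Per1 0.64 (6.47%). The narrowest were Clock and Nr1d1, both at 0.40 (21.8% and 22.0%). Without replicate 2 the value was 0.09 for Dbp, 0.01 for Per3, 0.04 for Tef and 0.08 for Nr1d1, but 0.27 for Per2, 0.31 for Per1, 0.35 for Cry2 and 0.36 for Nr1d2, and for Clock (0.40) and Cry1 (0.58) it was the same as with all 3 libraries. In edgeR's quasi-likelihood fit of all genes, which tests each gene's spread between libraries against the trend at its expression level, 0 of the 10 members were called at an adjusted p under 0.05 against 0.0829% of 18087 genes (15 genes). At an unadjusted p under 0.05 there were 4 members (Dbp, Tef, Per3 and Per1), against 5.18% of genes. Dbp came nearest to a call, with an edgeR adjusted p of 0.147. It was called without replicate 3 (edgeR adjusted p = 0.0265) and without the filter on low counts (edgeR adjusted p = 0.000132, the lowest over the alternatives; the highest was 0.997, without replicate 2). It was also the 1 member that DESeq2 marked as a dispersion outlier, against 0.619% of genes. Since the members were listed with this spread in view, nothing is read from these counts.

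**Figure D4:**
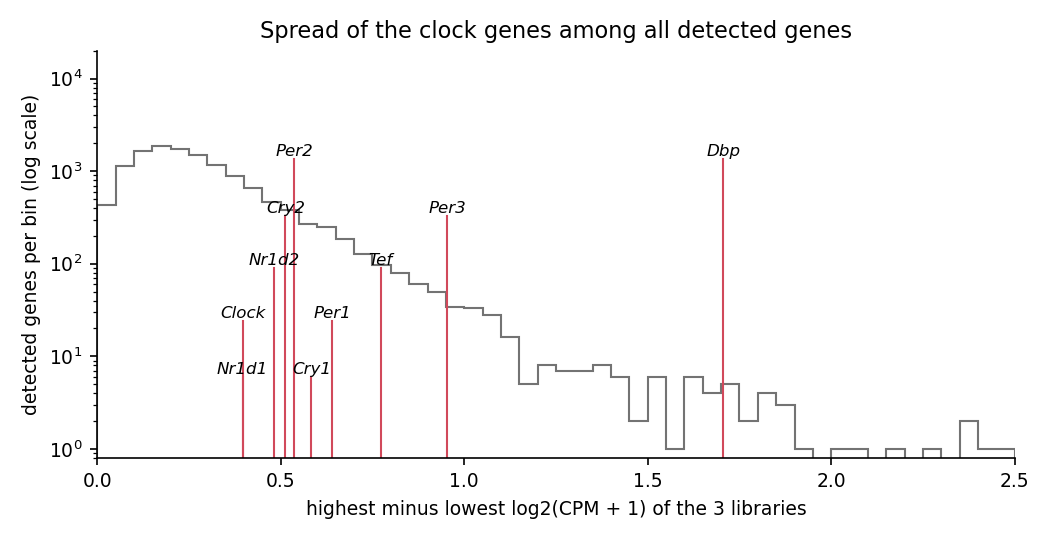
Number of detected genes (log axis) by the difference between their highest and lowest library in log2(CPM + 1), with the 10 members marked; line height has no meaning and 11 genes beyond 2.5 are not drawn. Dbp at 1.71 and Per3 at 0.95 lie in the thin right tail, and Clock and Nr1d1 at 0.40 lie in the body of the distribution.

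Levels of different genes were compared per kilobase of exon (GENCODE M21 lengths, matched by symbol). Nr1d1 was the highest, at 62.5 ± 9.38 CPM per kb (SD, n = 3). Then came Per1 (17.6 ± 3.93), Nr1d2 (15.2 ± 2.56), Dbp (14.2 ± 10.5) and Tef (14.2 ± 4.62), whose ranges over libraries overlapped from each to the next, so that their order is not resolved. Cry1 (5.98 ± 1.26) and Clock (5.27 ± 0.797) formed the next pair with overlapping ranges, and Cry2 had 3.27 ± 0.601. Per2 (1.27 ± 0.267) and Per3 (0.979 ± 0.443) were the lowest, again with overlapping ranges. On the same scale Arntl had 5.17, Npas2 1.86 and Nfil3 5.23 CPM per kb, so Clock stood above Npas2, the gene of the alternative partner.

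The elements named above can be seen in the DNA near the start sites of several of these genes. RefSeq promoter windows of build GRCm38.p6, running from 250 bases before to 50 bases after an annotated start, were found for 9 of the 10 members (13 windows; Per2 had none). They were searched on both strands for the E-box CACGTG, its variant CACGTT, the D-box as TTATGTAA or TTACGTAA, the ROR element as TAGGTCA or TGGGTCA, and the cyclic AMP element TGACGTCA. None of these motifs is contained in another. CACGTG occurs in 7.15% of all 32851 windows, CACGTT in 4.68%, the D-box in 1.06%, the ROR element in 6.45% and the cyclic AMP element in 1.79%. A match is a string of letters and not a measured binding site.

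The D-box, to which DBP and TEF bind, matched in 1 member. Per3 holds it at 2 places in the 250 bases before its start (chr4:151044666-151044915, minus strand), beginning at positions -205 and -158 from the start. Dbp and Tef, whose pattern Per3 shared, had no match, and the part of the element in these levels was not tested. Capitals mark the matches.

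Per3: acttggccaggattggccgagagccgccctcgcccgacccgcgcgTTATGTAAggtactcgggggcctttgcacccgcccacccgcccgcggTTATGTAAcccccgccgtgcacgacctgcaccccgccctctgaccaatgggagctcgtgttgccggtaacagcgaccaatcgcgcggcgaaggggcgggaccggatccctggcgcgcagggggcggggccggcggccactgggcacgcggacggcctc

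The E-box CACGTG matched in Per1, Cry1 and Tef, the last at 2 alternative starts, and is in capitals below with its flanks. Per1 lies on chr11:69098772-69098799 (plus strand), Cry1 on chr10:85185098-85185125 (minus strand), and the Tef windows on chr15:81802535-81802562 and chr15:81811265-81811292 (plus strand). They are shown because they put members that differed in pattern side by side: Per1 and Tef were highest in replicate 2 and Cry1 was not. The variant, read as AACGTG on the gene's own strand, matched in Nr1d1 (chr11:98775389-98775416, minus strand), and also in Cry1 and Cry2.

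Per1: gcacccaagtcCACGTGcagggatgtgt

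Cry1: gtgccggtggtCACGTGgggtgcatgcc

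Tef, first window: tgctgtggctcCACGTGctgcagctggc

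Tef, second window: acctggcccagCACGTGtctacatcgtt

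Nr1d1: gcacagatctcAACGTGccggctgctgg

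The ROR element matched in none of the member windows and in 2 of the 3 other dark-phase genes, Arntl and Nfil3. Npas2 had no match, and all 3 were lowest in replicate 2. The part of the element in these levels was not tested. The Arntl match begins 30 bases after an annotated start (chr7:113207530-113207558, plus strand) and the Nfil3 match 12 bases before one (chr13:52981034-52981062, minus strand), where it reads TGACCTA on the gene's strand. Among the other light-phase genes, CACGTG matched at 3 places in Ciart, which shared the shape of Dbp, and at 1 in Bhlhe41, which was lowest in replicate 2. In the Dbp, Nr1d2 and Clock windows none of the searched letters was found, which says nothing of elements elsewhere in these genes.

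Arntl: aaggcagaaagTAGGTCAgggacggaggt

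Nfil3: gcgctcggaacTGACCTActaacacacat

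Genes outside the lists were ranked by likeness to the mean deviations of the 7 light-phase members, which were -0.25, 0.47 and -0.22 (log2) in replicates 1, 2 and 3. Among 558 genes with at least 10 CPM in every library and a range of at least 0.8 times that of this pattern, the nearest by Euclidean distance over the 3 libraries was Gadd45g, a growth arrest and DNA damage gene (21.3, 37.2 and 22.9 CPM, distance 0.053). It was followed by Fat4, an atypical cadherin gene (49.6, 77.6 and 49.3 CPM, 0.060), Cd248, which encodes endosialin (45.1, 69.5 and 47.4 CPM, 0.10), Ndnf (118, 180 and 126 CPM, 0.12) and Pcsk1n (13.4, 25.6 and 14.8 CPM, 0.12). A likeness over 3 libraries describes these libraries and no more.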

How the data were processed

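The authors deposited 1 table of whole-number counts per gene symbol, not normalized. The submitters' processing notes name featureCounts, Subread 1.4.6-p5 and build GRCm39; aligner, annotation release, strand setting and handling of multi-mapping reads are not given there. Per the labels' protocols, polyA-selected stranded libraries (400 ng input) were read as 150 bp pairs.

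CPM were computed with TMM effective library sizes (edgeR 4.0.16, R 4.3.3); the log scale is log2(CPM + 1), which understates differences of low genes. Spread between libraries was tested over all genes kept by filterByExpr with an intercept-only quasi-likelihood fit in edgeR, each gene's quasi-dispersion against the trended prior (upper-tail F test, Benjamini-Hochberg, 0.05); the script was tested on simulated data. DESeq2 1.42.0 was an alternative. The labels do not describe how the samples were separated, so p-values measure only the spread between these samples, which may be technical. The mean chi-square per gene between pairs of libraries was 179 to 252, above sampling noise.

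The genes given by name were the 10 members, the genes of fixed lists and the 5 nearest in likeness; members and lists were chosen with earlier results of these data known. Thra and Sphk2 were added once their exon overlap was seen. Bmal1 stands in the table as Arntl, matched through RefSeq synonyms. Lengths and overlaps came from GENCODE M21 (GRCm38, 49083 genes matched by symbol) and promoters from RefSeq on GRCm38.p6; neither was combined with coordinates of the authors' build. Python 3.11.15, numpy 2.4.6 and pandas 2.3.3 were used.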

Additional observations from a re-analysis of the deposited data

How the results depend on the processing

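The order of the libraries held under 3 scalings (TMM, library totals and DESeq2 size factors): the highest and lowest library were the same for 26 of 35 clock genes checked and for 9 of the 10 members, the exception being Tef, whose lowest library changed from replicate 1 to 3 with library totals. The range of the phase contrast over libraries (0.78) stayed between 0.62 and 1.13 under the other scalings, pseudocount, filter and choices of members, of which leaving out Dbp (0.62), Clock (0.96) or Cry1 (1.03) was chosen after seeing the data. With 1 replicate left out it ran from 0.056 (without replicate 2) to 0.78. The median spread of the members (0.56) ran from 0.29 to 0.52 with 1 replicate left out. Under other scalings or pseudocount, none of the 30 single values of spread and none of the 20 of level moved by more than 1 SD over libraries; with 3 libraries, that measure says nothing about stability when 1 is left out.

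The count of genes past the dispersion trend (15) was 173 without a filter on low counts, 0 with a robust prior (785 at an unadjusted p under 0.05) and 112 by DESeq2's outlier mark, and 7 to 80 with 1 replicate left out, by edgeR unless named. The members among them numbered 1 (Dbp) without the filter, 1 (Dbp) by DESeq2, and 0 to 1 with 1 replicate left out. The lowest count of a member in a library was 772 (Per2, replicate 1). No paired analysis was possible because the samples form 1 group.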
